A study of Mus musculus with 2 samples.

Results

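Polycomb and Trithorax proteins were examined here through 42 genes that encode subunits of Polycomb repressive complexes 2 and 1 (PRC2, 11 genes; PRC1, 18 genes) and of Trithorax-group complexes and related enzymes (13 genes). The genes were taken by symbol, through their gene identifiers, from 43346 mouse genes in the deposited tables, and each symbol matched 1 gene. B6NCrl mouse embryos at embryonic day 12.5 gave forebrain total RNA, in 2 biological replicates that were pools of male and female embryos, 120 in replicate 1 and 68 in replicate 2. No allele or treatment is named in the labels, and the pools form 1 group, so levels were compared between genes and not between conditions. Pooling averages over embryos, regions and sexes, and in such tissue fewer cells of a type and less RNA per cell cannot be told apart.

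Polycomb complexes keep developmental genes silent. PRC2 methylates lysine 27 of histone H3 (H3K27), and PRC1 adds ubiquitin to histone H2A and compacts chromatin. Trithorax-group enzymes methylate lysine 4 of histone H3 (H3K4) or remove the H3K27 mark and hold genes active. In the embryonic forebrain both systems are known for setting when progenitors stop dividing and which neurons they make. Most subunits come as paralogues that exclude each other from a complex, so the ratio of paralogues bears on which complexes a cell can assemble.

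The expected counts (reads per gene as estimated by the authors' quantifier) summed to 33711030 in replicate 1 and 34578499 in replicate 2, and those of the 42 genes lay between 179 and 17304. All 7 forebrain markers examined, among them Lhx2 and Pax6, were above 1 TPM in both pools. TPM is a level per transcript length, relative to all transcripts of the library, so that levels of different genes can be set side by side. Values are given for replicate 1 and then replicate 2.

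All 42 genes were detected, meaning 1 TPM or more in both pools, against 60% of 21474 protein-coding genes. The mean level was above 10 TPM for 35 of the 42 (83.3%), against 69.3% of the detected protein-coding genes. Their median was 25.6 TPM and 24.9 TPM, close to the median of 21.6 TPM over the 12880 detected protein-coding genes, and 24 of 42 were above it. The median was 49.7 TPM and 51.3 TPM for PRC2 genes, 26.9 TPM in both pools for PRC1 genes and 21.04 TPM in both pools for Trithorax genes. The extremes were Rbbp4 at 98.1 and Cbx7 at 10.3 on the percentile scale of detected protein-coding genes.

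**Figure D1:**
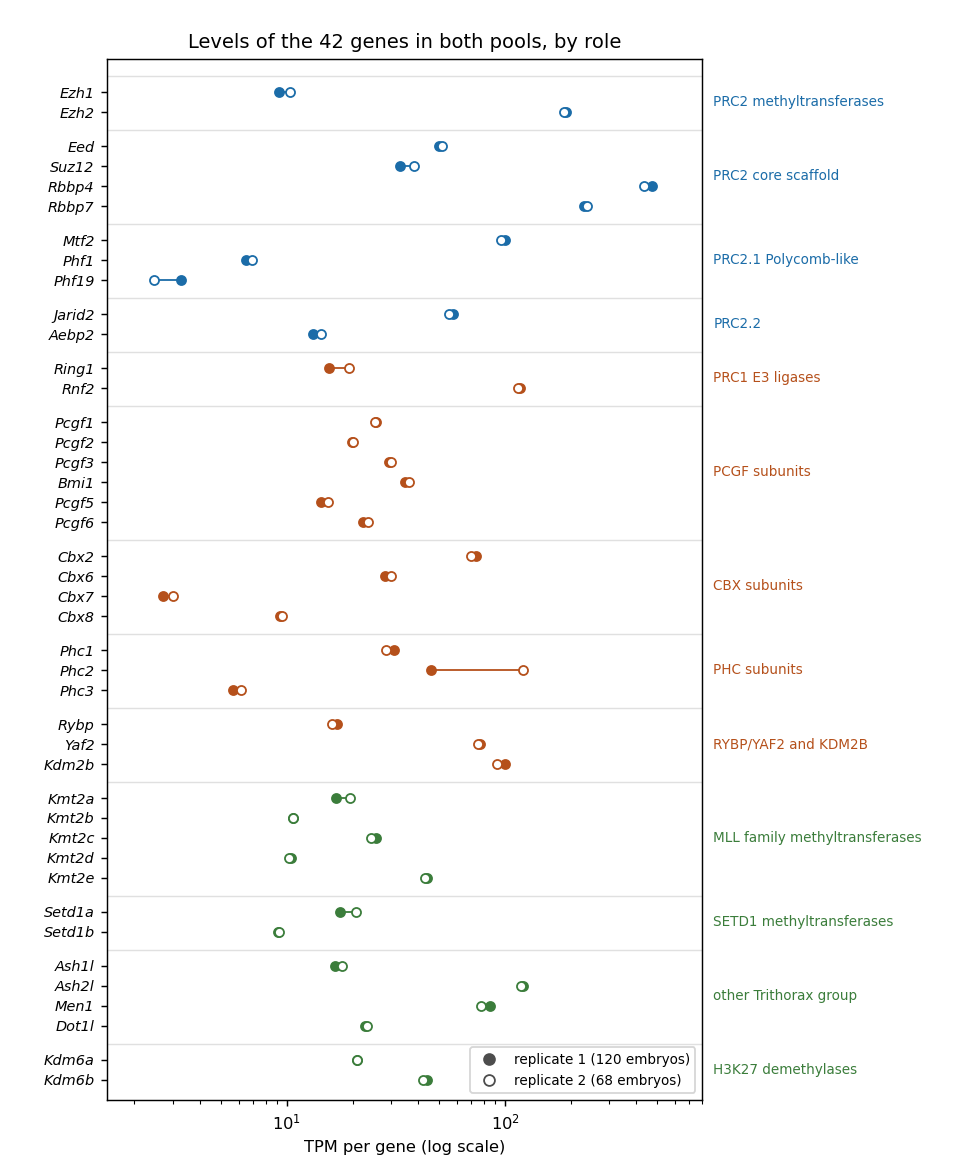
TPM of each of the 42 genes (log axis) in replicate 1 (filled points) and replicate 2 (open points), grouped by role and coloured by complex. The points of most genes lie close together. Phc2 stands furthest apart, at 45.9 TPM and 121 TPM. Smaller gaps show for genes such as Phf19 (3.28 TPM and 2.47 TPM) and Ring1 (15.7 TPM and 19.4 TPM). The levels run from Cbx7 at 2.69 TPM and 3.00 TPM to Rbbp4 at 469.7 TPM and 432 TPM.

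Within PRC2 the catalytic subunit was mostly Ezh2. Ezh2, the methyltransferase of dividing progenitors, was at 190.3 TPM and 186 TPM. Ezh1, its paralogue that prevails in many non-dividing cells, was at 9.15 TPM and 10.3 TPM. The mean of Ezh2 was 19.3-fold that of Ezh1, and the log2 ratio of TPM + 1 was 4.24 and 4.04. The markers of cycling cells (Cdk1, Top2a, Ccnb1, Mki67) summed to 954 TPM and 939 TPM and those of neurons (Tubb3, Map2, Stmn2, Dcx) to 1385 TPM and 1287 TPM, so the tissue held RNA of both kinds of cell.

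Such ratios were read with a rule, because 2 pools allow no useful test (the exact paired permutation p cannot go below 0.5). A pair met the rule where the log2 ratio had the same sign in both pools and its smaller size was above the larger change of either gene between pools. Of 35 pairs in 12 families, 34 (97.1%) met it. Of all pairs of detected protein-coding genes 91.7% did, so meeting the rule is common and the size of a ratio carries more than the count. Ezh2 and Ezh1 met it by a wide margin, with a larger own change of 0.16 on the log2 scale.

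The core partners were at unequal levels. Eed, which binds the trimethylated H3K27 product, was at 49.7 TPM and 51.3 TPM, and Suz12, the scaffold, was at 33.1 TPM and 38.1 TPM. Both were below Ezh2 in each pool. The histone-binding subunits Rbbp4 and Rbbp7, which also serve other chromatin complexes, were far higher. Rbbp4 was at 469.7 TPM and 432 TPM and Rbbp7 at 229 TPM and 239 TPM.

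The order of Rbbp4 and Rbbp7 turned on which transcripts were counted. Rbbp4 (ENSMUSG00000057236.10, chr4:129307100-129335370, minus strand, mm10) had 67.1% and 74.3% of its TPM in Rbbp4-203, a transcript of 722 bases without an annotated reading frame. All 722 of its exon bases lie inside exons of the coding transcript Rbbp4-201, and its last exon of 360 bases lies in the untranslated part of Rbbp4-201. Reads that lie within a shared exon can come from either transcript. Rbbp4-203 joins a shortened exon directly to its last exon, a junction that Rbbp4-201 lacks. Reads across it can come from Rbbp4-203 but not from Rbbp4-201, and they were not examined here. At its short length, 3954 and 4190 expected counts of Rbbp4-203 became 315 TPM and 321 TPM. Rbbp4-203 took 22.9% and 29.5% of the expected counts of the gene. The coding Rbbp4-201 was at 147 TPM and 104 TPM. Over protein-coding transcripts alone, Rbbp4 was below Rbbp7 in both pools, with log2 ratios of -0.62 and -1.18 in place of 1.03 and 0.85. How reads of shared exons were divided was not tested here.

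Among the accessory subunits that split PRC2 into its forms, Mtf2 and Jarid2 led. The Polycomb-like proteins define PRC2.1 and help to bring it to CpG-rich DNA. Mtf2 was at 99.6 TPM and 96.1 TPM, Phf1 at 6.47 TPM and 6.89 TPM, and Phf19 at 3.28 TPM and 2.47 TPM. The mean of Mtf2 was 14.7-fold that of Phf1 and 34.04-fold that of Phf19. PRC2.2 holds Jarid2, at 57.7 TPM and 55.4 TPM, and Aebp2, at 13.1 TPM and 14.3 TPM. Over all transcripts, PRC2.1 and PRC2.2 thus each had an accessory subunit above Eed in both pools. This changed over long coding forms, which are defined below with the PCGF genes. Mtf2 was then at 20.9 TPM and 20.4 TPM, below Eed at 47.6 TPM and 49.6 TPM. Jarid2 was at 49.98 TPM and 47.25 TPM, above Eed in replicate 1 and below it in replicate 2.

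The lead of Mtf2 was smaller in its long coding form. The main transcript, Mtf2-208, is annotated as a coding fragment of 718 bases and held 31.1% and 28.9% of TPM but 10.5% and 9.36% of the counts. The 1779-base reading frame of Mtf2-201 was at 20.9 TPM and 20.4 TPM, so the ratio over long coding forms was 3.09-fold to Phf1 and 9.99-fold to Phf19. Phf1 has 1 transcript in the table, and Phf19-201, the long form, held 65.3% and 80.8% of Phf19.

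PRC1 has a ubiquitin ligase, RING1 or RNF2, paired with 1 of 6 PCGF proteins that name its variants. Rnf2 was at 118 TPM and 115 TPM and Ring1 at 15.7 TPM and 19.4 TPM. The mean of Rnf2 was 6.64-fold that of Ring1. The log2 ratio was 2.83 and 2.51, against a larger own change of 0.29.

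The PCGF genes lay close together. Bmi1 (PCGF4), which with Pcgf2 marks canonical PRC1, was at 34.8 TPM and 36.3 TPM. Pcgf2, also named Mel18, was at 19.9 TPM and 20.0 TPM. Bmi1 is known for the self-renewal of neural stem cells. Of the genes of variant PRC1, Pcgf3 was at 29.5 TPM and 30.0 TPM and Pcgf5 at 14.4 TPM and 15.4 TPM. Pcgf1 was at 25.6 TPM and 25.5 TPM and Pcgf6 at 22.4 TPM and 23.6 TPM. Means thus ran from 14.9 TPM to 35.5 TPM, in the order Bmi1, Pcgf3, Pcgf1, Pcgf6, Pcgf2, Pcgf5. All 15 pairs met the rule, the narrowest being Pcgf1 over Pcgf6 with log2 ratios of 0.18 and 0.10 against an own change of 0.07. The rule does not take the deposited intervals into account. In replicate 1 these ran from 23.0 TPM to 28.5 TPM for Pcgf1 and from 20.4 TPM to 23.2 TPM for Pcgf6. Those of Pcgf1 and Pcgf6, of Pcgf3 and Pcgf1 and of Pcgf6 and Pcgf2 overlapped in each pool.

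That narrow order did not hold for all of the family when only long coding forms were counted, meaning transcripts with at least 90% of the longest coding length of the gene. Bmi1 stayed the highest, at 34.1 TPM and 35.01 TPM. Pcgf6 was then above Pcgf1, with log2 ratios of Pcgf1 over Pcgf6 of -0.08 and -0.23. Pcgf2 was at 10.5 TPM and 13.1 TPM, below Pcgf5. Pcgf2-202 held 32.8% and 39.8% of Pcgf2, and the 474-base reading frame of Pcgf2-203 held 28.8% and 18.3%.

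The CBX proteins of canonical PRC1 read the H3K27 mark through a chromodomain. Of the 4 examined, Cbx2 was at 73.4 TPM and 69.5 TPM, Cbx6 at 28.2 TPM and 30.0 TPM, Cbx8 at 9.32 TPM and 9.51 TPM, and Cbx7 at 2.69 TPM and 3.00 TPM. The mean of Cbx2 was 25.1-fold that of Cbx7, which is known as the CBX of embryonic stem cells. All 6 pairs met the rule and kept that order over long coding forms, but the size of the ratio to Cbx7 depended on the measure. The mean log2 ratio of Cbx2 over Cbx7 was 4.24 on deposited TPM, 3.66 on posterior means and 5.37 over long coding forms. Cbx2 and Cbx8 lie 5.04 kb apart on chromosome 11 on opposite strands, and Cbx6 and Cbx7 lie 81.1 kb apart on chromosome 15 on the same strand.

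The lowest 2 of these were the least well resolved. The Cbx7 counts were 203 and 218, and the deposited intervals ran from 2.91 TPM to 6.68 TPM and from 3.12 TPM to 6.83 TPM, both above the deposited TPM. Its main transcript, Cbx7-203, encodes a short form (474 coding bases) and held 46.4% and 53.1%. Cbx7-201, with 753 coding bases, held 28.2% and 22.5%. For Cbx8 the main transcript differed between pools, with the coding Cbx8-201 at 37.4% and 47.8% and the 789-base Cbx8-202, without a reading frame, at 35.5% and 52.2%.

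PHC proteins polymerise through a SAM domain and cluster PRC1 in the nucleus. Phc1 was at 30.8 TPM and 28.3 TPM and Phc3 at 5.65 TPM and 6.18 TPM. Phc2 was at 45.9 TPM and 121 TPM, so the pools stood apart. The deposited intervals of Phc2 ran from 42.9 TPM to 48.0 TPM and from 114 TPM to 123 TPM. Phc2 over Phc1 was the pair that missed the rule, with log2 ratios of 0.56 and 2.05 against an own change of 1.38.

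**Figure D2:**
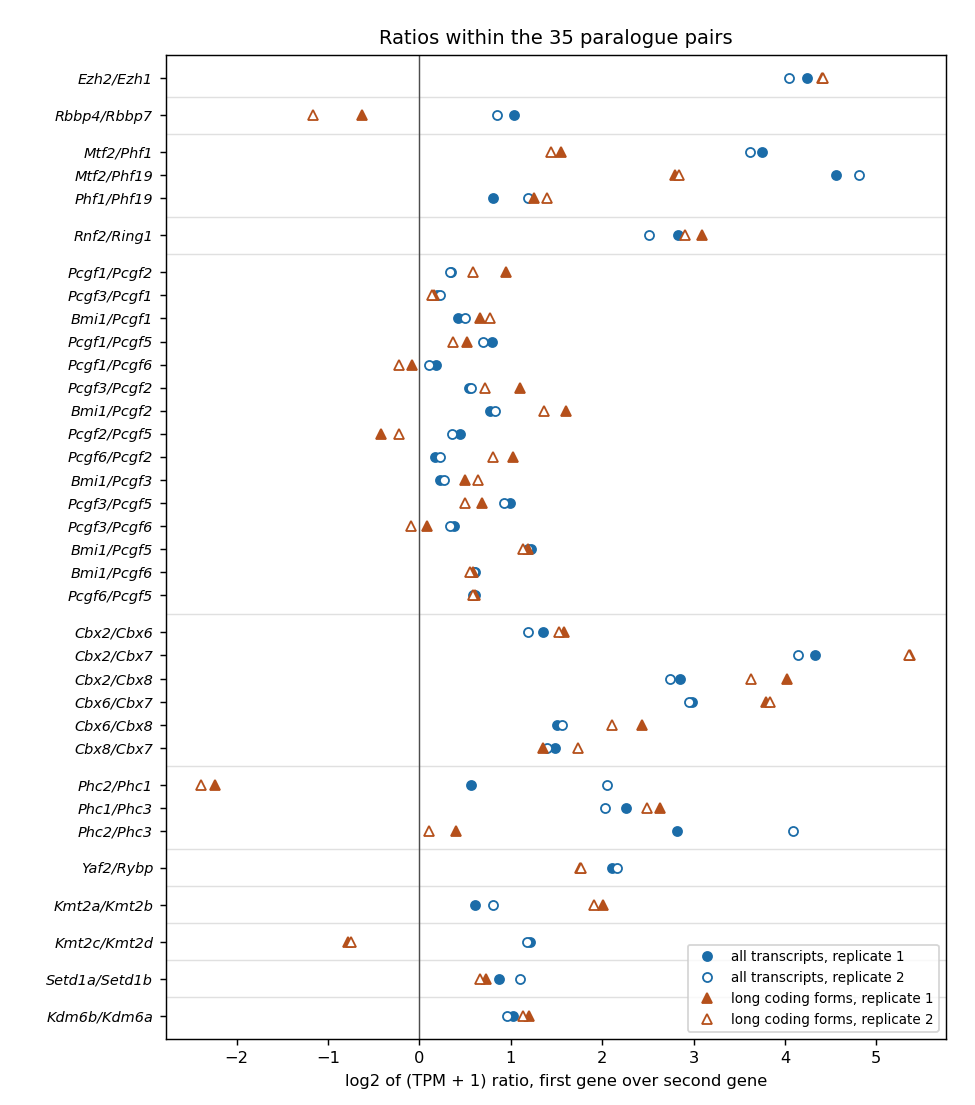
Log2 ratio of TPM + 1 within the 35 paralogue pairs, first gene over second, in replicate 1 (filled) and replicate 2 (open). Circles count all transcripts and triangles only long coding forms. Rbbp4/Rbbp7, Kmt2c/Kmt2d and Phc2/Phc1 lie right of 0 as circles and left of 0 as triangles, as do Pcgf1/Pcgf6 and Pcgf2/Pcgf5 among the PCGF pairs.

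Variant PRC1 carries RYBP or YAF2 in place of a CBX protein, and KDM2B brings the PCGF1 form to CpG islands through a CXXC zinc finger. Yaf2 was at 76.6 TPM and 75.2 TPM and Rybp at 17.0 TPM and 16.1 TPM. The mean of Yaf2 was 4.59-fold that of Rybp, and 3.53-fold over long coding forms. Yaf2-202, annotated as a target of nonsense-mediated decay, held 21.8% and 24.2% of Yaf2, and Rybp-201 is the sole transcript of Rybp in the table. Kdm2b was at 99.8 TPM and 91.6 TPM, the highest mean of the PRC1 genes after Rnf2.

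Most of the Kdm2b signal was assigned to a short form from an internal start. Kdm2b (ENSMUSG00000029475.13) lies at chr5:122870665-122989823 on the minus strand of mm10. Kdm2b-201, with 12 exons and 2328 coding bases, was at 83.6 TPM and 76.5 TPM, or 83.8% and 83.6% of the gene. Its start lies 88951 bases downstream of that of the long Kdm2b-204, in intron 12 of the latter. Kdm2b-204, with 23 exons and 3798 coding bases, was at 6.24 TPM and 4.56 TPM. The long form carries the JmjC demethylase domain and the short form lacks it, and both are known to keep the CXXC zinc finger. Transcripts from the internal start summed to 9.46-fold and 8.52-fold those from the upstream starts. This division rests on the bases the forms do not share, since 3003 of the 3532 exon bases of Kdm2b-201 lie in exons of Kdm2b-204. The 3′ end also overlaps Rnf34 on the other strand by 627 bases. Rnf34 was at 70.2 TPM and 65.2 TPM, and no source used here says whether the counting used strand.

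The DNA before the internal Kdm2b start is shown because most of the gene's signal was assigned to it. The line gives the 250 bases before a RefSeq start (GRCm38.p6, the assembly of mm10), 5′ to 3′ on the gene's strand, with CG dinucleotides, the sites that the KDM2B zinc finger binds when unmethylated, in capitals. No exon of Kdm2b lies in this window. The window of the upstream start is not shown, since it overlaps the first exon of Kdm2b-204.
Kdm2b internal start, chr5:122900368-122900617, minus strand: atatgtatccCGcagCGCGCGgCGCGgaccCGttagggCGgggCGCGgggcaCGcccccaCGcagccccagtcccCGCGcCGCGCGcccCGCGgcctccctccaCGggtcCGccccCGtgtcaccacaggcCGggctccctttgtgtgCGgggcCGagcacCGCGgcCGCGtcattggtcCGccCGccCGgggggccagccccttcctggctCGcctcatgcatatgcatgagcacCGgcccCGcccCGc
The window holds 36 CG dinucleotides. Of 32851 such RefSeq windows, with a median of 6, 2.58% hold at least 36. It holds no TATAAA on either strand, which 12.4% of windows do. These are counts of letters, and methylation and binding were not measured.

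Phc2 (ENSMUSG00000028796.13, chr4:128654702-128752881, plus strand, mm10) also had most of its signal at an internal start, and the difference between pools lay there. Transcripts within 500 bases of the internal start summed to 38.3 TPM and 116 TPM, a 3.02-fold difference. Those from the first start summed to 2.97 TPM and 3.38 TPM and those from the second to 4.04 TPM and 1.25 TPM. Phc2-202, the main internal form, has 969 coding bases that end where those of the long forms end, so it keeps the C-terminal SAM domain. It was at 34.1 TPM and 97.5 TPM, with 1674 and 4985 expected counts. The long forms Phc2-201 and Phc2-203, with 2550 coding bases, were at 1.36 TPM and 2.67 TPM and at 3.42 TPM and 1.14 TPM. Over long coding forms Phc2 was thus below Phc1 in both pools, and its pool levels of 4.78 TPM and 3.81 TPM lay close together. The bounds of each long form were wide. Those of Phc2-203 ran from 2.0e-07 TPM to 4.33 TPM and from 5.8e-06 TPM to 2.73 TPM. Those of Phc2-201 ran from 0.054 TPM to 4.51 TPM and from 0.83 TPM to 3.75 TPM, so the split between the first and second starts is poorly resolved. Of the 2535 exon bases of Phc2-202, 2249 are shared with Phc2-201. The windows before the 3 starts are shown because the difference lay in transcripts of the last.
Phc2 first start, chr4:128654452-128654701, plus strand: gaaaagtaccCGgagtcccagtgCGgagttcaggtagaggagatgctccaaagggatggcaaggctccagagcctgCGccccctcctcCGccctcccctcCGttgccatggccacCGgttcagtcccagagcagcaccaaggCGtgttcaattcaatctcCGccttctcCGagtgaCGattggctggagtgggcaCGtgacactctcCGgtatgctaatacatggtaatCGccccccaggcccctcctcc
Phc2 second start, chr4:128688488-128688737, plus strand: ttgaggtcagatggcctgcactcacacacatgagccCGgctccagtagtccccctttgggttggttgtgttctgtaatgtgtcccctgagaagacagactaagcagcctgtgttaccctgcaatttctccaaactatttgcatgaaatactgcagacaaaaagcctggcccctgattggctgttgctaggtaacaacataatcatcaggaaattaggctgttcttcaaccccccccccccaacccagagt
Phc2 internal start, chr4:128727321-128727570, plus strand: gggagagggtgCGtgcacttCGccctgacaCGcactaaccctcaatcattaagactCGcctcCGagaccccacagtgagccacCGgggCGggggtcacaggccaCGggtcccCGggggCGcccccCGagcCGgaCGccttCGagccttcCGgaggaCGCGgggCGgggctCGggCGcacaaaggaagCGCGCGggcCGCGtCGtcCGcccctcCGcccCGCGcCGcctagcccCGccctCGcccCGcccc
They hold 13, 1 and 34 CG dinucleotides, which 31.5%, 92.1% and 3.53% of the RefSeq windows reach or pass, and no TATAAA on either strand.

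**Figure D3:**
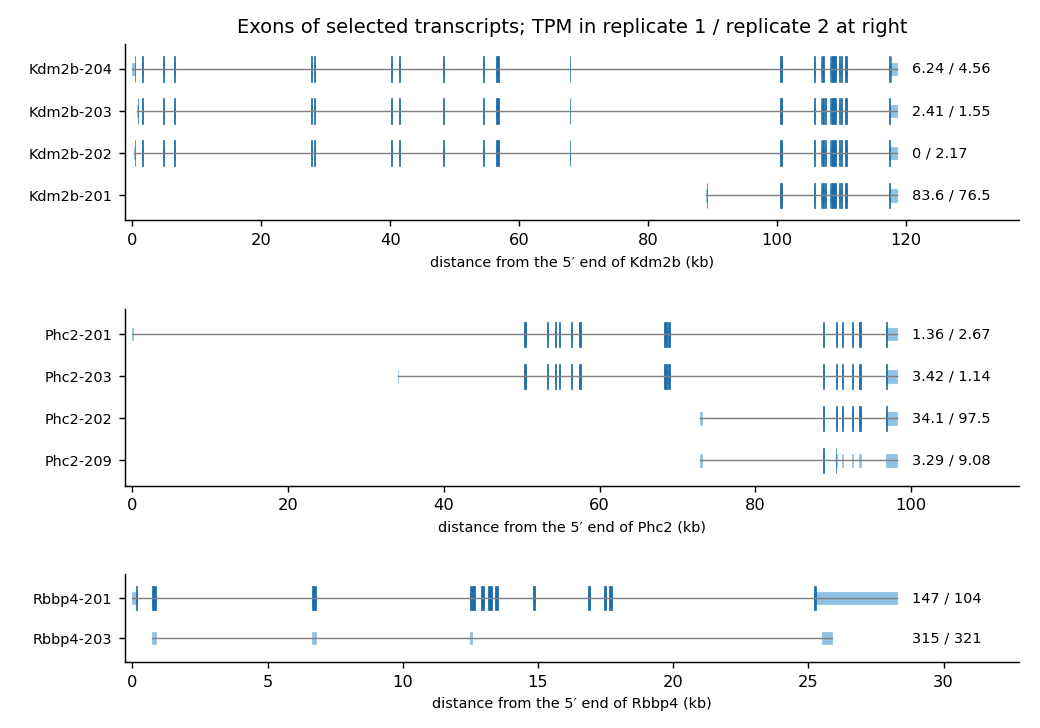
Exons (light) and coding parts (dark) of selected Kdm2b, Phc2 and Rbbp4 transcripts against the distance from the 5′ end of the gene in kb, with TPM in replicate 1 and replicate 2 at the right. The internal-start forms Kdm2b-201 (83.6 TPM and 76.5 TPM) and Phc2-202 (34.1 TPM and 97.5 TPM) share their 3′ exons with the long forms, and Rbbp4-203 lies inside the exons of Rbbp4-201.

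Phc2 was the 1 gene of the 42 (2.38%) that differed by more than 1.5-fold between pools, against 1.8% of 13092 protein-coding genes with a mean of at least 1 TPM. Its log2 ratio of replicate 2 over replicate 1 was 1.38. Among the 8930 protein-coding genes with a mean of at least 10 TPM, Cop1 alone had a larger excess in replicate 2, at 27.2 TPM and 84.5 TPM. Of the protein-coding neighbours within 300 kb, Zscan20 was at 5.91 TPM and 6.84 TPM, Zfp362 at 34.5 TPM and 36.1 TPM, Trim62 at 10.3 TPM and 10.4 TPM and Azin2 at 9.87 TPM and 12.4 TPM. Tlr12 (1.33 TPM and 0.65 TPM) and A3galt2 (0.31 TPM and 0.47 TPM) were too low to read. The named neighbours above 5 TPM were within 1.26-fold between pools.

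Marker sums moved between the pools as well. Choroid plexus markers (Ttr, Msx1) summed to 76.1 TPM and 140.4 TPM, erythroid markers to 8228 TPM and 11028 TPM, and mesenchymal markers to 667 TPM and 808 TPM. Microglial markers summed to 31.7 TPM and 38.0 TPM, and endothelial markers to 80.8 TPM and 85.7 TPM. Forebrain markers summed to 799.8 TPM and 734 TPM, with Dlx1 and Dlx2 of the ventral forebrain at 246 TPM and 171 TPM (Dlx1) and at 109 TPM and 70.8 TPM (Dlx2). The dorsal markers Lhx2, Emx1 and Emx2 went the other way. Lhx2 was at 161 TPM and 185 TPM and Emx1 at 58.9 TPM and 73.5 TPM. Pax6 (90.1 TPM and 91.5 TPM) and Nr2e1 (85.8 TPM and 85.5 TPM) of the same list barely moved. No marker of these lists was at 0, and all were above 1 TPM in both pools. The part of these cells, or of how each pool was dissected, in the Phc2 difference was not tested.

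**Figure D4:**
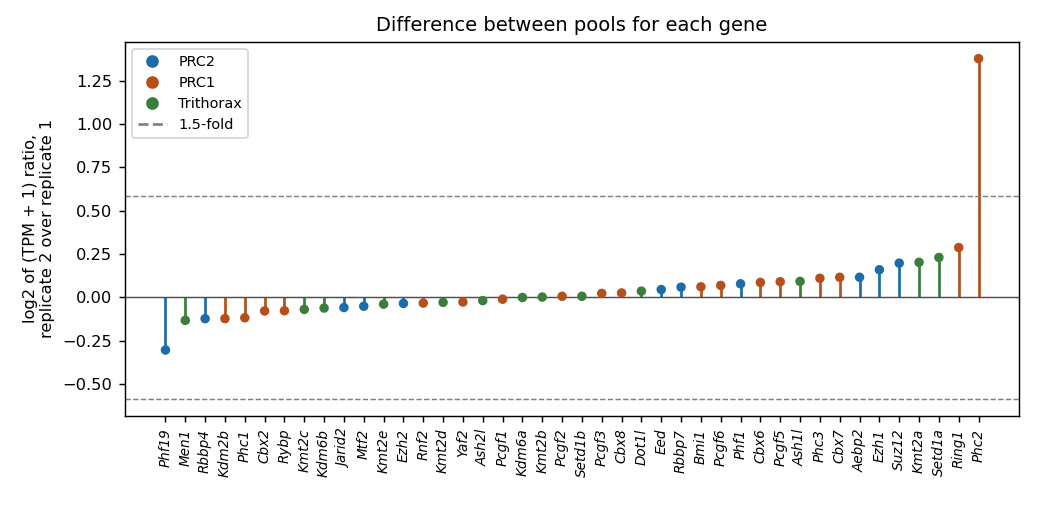
Log2 ratio of TPM + 1 in replicate 2 over replicate 1 for each gene, in rising order and coloured by complex, with dashed lines at 1.5-fold. Phc2 stands at 1.38, and the other genes lie between -0.30 (Phf19) and 0.29 (Ring1).

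The remaining genes moved less. The pools differed by 1.2-fold or more on the log2(TPM + 1) scale in 3 of the 42 genes, Phc2, Phf19 and Ring1, against 13.3% of protein-coding genes with a mean of at least 1 TPM. The median size of the log2 ratio was 0.07 over the 42 genes and 0.09 over protein-coding genes with a mean of at least 1 TPM. The deposited intervals of the pools did not overlap for Rbbp4, Phc2 and Kmt2a, or 7.14% of the genes, against 15.2% of detected protein-coding genes. No source used here gives the level of these intervals or says which errors they cover. Each was deposited for 1 pool, so it holds no spread between pools. Without Phc2, the PRC1 sum was 623 TPM and 614 TPM, against 669 TPM and 735 TPM with it.

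The Trithorax methyltransferases ran from Setd1b at a mean of 9.16 TPM to Kmt2e at 43.4 TPM. Kmt2a (MLL1), which keeps neural stem cells able to form neurons, was at 16.7 TPM and 19.4 TPM, and Kmt2b at 10.6 TPM and 10.7 TPM. Kmt2c was at 25.5 TPM and 24.3 TPM and Kmt2d at 10.4 TPM and 10.2 TPM. The products of these last 2 place single methyl groups on H3K4 at enhancers. Kmt2e, whose product is not known to be an active methyltransferase, was the highest of the family at 44.0 TPM and 42.9 TPM. Setd1a was at 17.6 TPM and 20.8 TPM and Setd1b at 9.14 TPM and 9.19 TPM. These place most H3K4 trimethylation at promoters.

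In this family, too, the ratios changed with the transcripts counted. Kmt2c was 2.41-fold Kmt2d over all transcripts. Its main transcript, Kmt2c-208, has 4572 coding bases against 14712 in Kmt2c-201, with the same coding end, and held 43.4% and 45.1%. The long Kmt2c-201 was at 5.49 TPM and 5.46 TPM, whereas 97.1% of Kmt2d was in long coding forms, at 10.2 TPM and 9.86 TPM. Over long coding forms Kmt2d was therefore 1.83-fold Kmt2c. Kmt2a was 1.70-fold Kmt2b over all transcripts and 5.13-fold over long coding forms. Kmt2b-207, a retained intron of 571 bases, held 40.7% and 41.3% of Kmt2b TPM and 4.85% and 5.04% of its counts. Setd1a had 59.6% and 65.7% in Setd1a-203, a coding fragment of 730 bases. Setd1b had 55.1% and 49.1% in the retained intron Setd1b-202. Setd1a was 2.09-fold Setd1b over all transcripts and 1.83-fold over long coding forms, and the mean log2 ratio was 0.98 over all and 2.32 over protein-coding transcripts.

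Over all transcripts, the cofactors Ash2l and Men1 were among the higher genes. Ash2l, a core subunit shared by the MLL and SETD1 complexes, was at 120.4 TPM and 119 TPM. Men1, which encodes menin and ties KMT2A and KMT2B to chromatin, was at 85.4 TPM and 77.9 TPM. Ash1l, an H3K36 methyltransferase, was at 16.6 TPM and 17.8 TPM, and Dot1l, the H3K79 methyltransferase, at 22.7 TPM and 23.4 TPM. Ash2l-210 (1602 coding bases) held 55.2% and 53.0% and Ash2l-201 (1869 coding bases) 38.4% and 33.5%. Over long coding forms Ash2l was at 46.3 TPM and 39.8 TPM, and Men1 at 79.6 TPM and 74.5 TPM. The H3K27 demethylase Kdm6b was at 43.8 TPM and 41.95 TPM and Kdm6a, on chromosome X, at 21.04 TPM in both pools. Kdm6b was 2.04-fold Kdm6a. Uty, the Y-linked relative of Kdm6a, was at 14.9 TPM and 14.3 TPM in these pools of both sexes.

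The 42 genes were then described by the classes of their transcripts. The median share of TPM in protein-coding transcripts was 90.2%, against 97.7% over detected protein-coding genes. The median share in long coding forms was 75.4% against 91.7%. It was under 50% for 12 of 42 genes (28.6%), against 18.8% of detected protein-coding genes. These were Phc2, Kdm2b, Aebp2, Mtf2, Kmt2c, Kmt2b, Cbx7, Rbbp4, Setd1a, Setd1b, Ash2l and Cbx8. The main transcript was not protein-coding in 4 of 42 (9.52%), namely Rbbp4, Cbx8, Kmt2b and Setd1b, against 6.43% of detected protein-coding genes. It differed between pools in 4 of the 39 genes with more than 1 transcript (10.3%), against 9.18% of such detected protein-coding genes. Genes with more than 1 transcript numbered 39 of the 42 and 9457 of the 12880 detected protein-coding genes. A gene whose sole transcript is coding has its full TPM there by construction, so the other shares also depend on how many transcripts are annotated. Those shares were not compared among genes with more than 1 transcript alone.

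**Figure D5:**
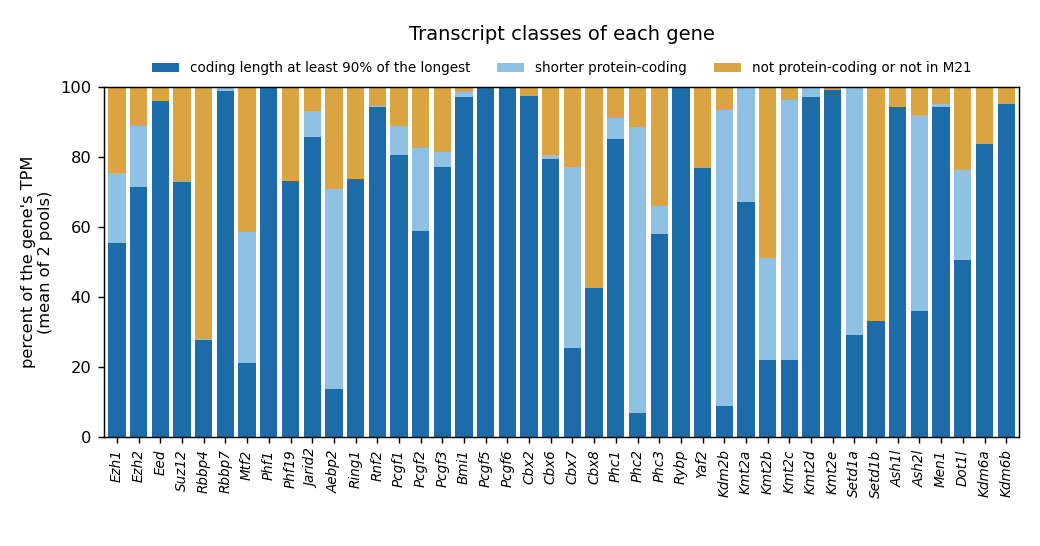
Percent of each gene's TPM, as the mean of both pools, in long coding forms (dark blue), shorter protein-coding transcripts (light blue) and transcripts that are not protein-coding or have no entry in the annotation used (ochre). The dark part is smallest for Phc2 (6.79%) and Kdm2b (8.86%) and fills the bar for Phf1, Pcgf5, Pcgf6 and Rybp.

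Other genes with known alternative forms mostly used a long coding one. Ezh2-201 held 57.4% and 56.5% of Ezh2, with the 866-base fragment Ezh2-205 at 18.8% and 16.1%. Ezh1-203 held 60.5% and 50.6% of Ezh1, with deposited bounds from 0 TPM to 5.21 TPM in replicate 1. Eed-201 held 95.7% and 96.7%, Jarid2-208 77.3% and 67.2%, Kmt2a-201 65.7% and 52.0%, Kmt2e-201 87.9% and 86.7% and Kdm6a-201 79.3% and 74.5%. Pcgf6-201 is the sole transcript of Pcgf6. Aebp2, whose short form is known from embryos, had 44.2% and 44.4% in Aebp2-201 with 822 coding bases, and 12.6% and 11.4% in Aebp2-202 with 1488. A further 25.7% and 23.7% of Aebp2 was in transcripts without an entry in the annotation used, so their coding length is not known here.

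In 4 genes the leading transcript differed between pools. Pcgf1-201 was at 40.7% and 56.0% and Pcgf1-202 at 41.7% and 22.8%. Phc1-202 was at 31.3% and 33.97% and Phc1-215 at 34.7% and 24.3%. Men1-201 was at 39.3% and 49.7% and Men1-203 at 40.5% and 40.6%. Cbx8 was the other, as given above. The coding lengths were 741 and 777 bases for the pair of Pcgf1, 2874 and 3030 for that of Phc1, and 1833 in both for Men1, whereas Cbx8-202 has no reading frame.

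Of 37 further genes of these pathways, 36 were found and all 36 were above 1 TPM in both pools, against 60% of protein-coding genes. They hold partners such as Wdr5, Bcor and Asxl1. The highest were Psip1, which tethers MLL complexes, at 427 TPM and 402 TPM, Dpy30 of the same core as Ash2l at 170 TPM and 179 TPM, and the H2A deubiquitinase Bap1 at 111 TPM and 107 TPM. None of the 36 passed 1.5-fold between pools, against 1.8% of protein-coding genes with a mean of at least 1 TPM. The median of the 36 was 32.0 TPM.

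The classic Polycomb targets examined, which were Hox genes and Cdkn2a only, were near or at 0. None of the 39 Hox genes of clusters a to d nor Cdkn2a reached 1 TPM in either pool. Among the highest were Hoxd1 at 0.25 TPM and 0.43 TPM and Hoxa3 at 0.02 TPM and 0.26 TPM. No count was assigned to 23 of these 40 genes in either pool, Cdkn2a included. A count of 0 allows up to 3 counts, or between 0.0611 TPM and 0.192 TPM for these genes in replicate 1 and between 0.0587 TPM and 0.185 TPM in replicate 2. Histone marks were not measured here, so these levels stand beside those of the Polycomb genes without a link between them.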

How the data were processed

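Total RNA from 2 pools of forebrain was sequenced by the submitters. Per the labels, 10 ng of RNA extracted with the mirVana kit entered each library, RNA above a size limit was kept and ERCC spike-ins were added. Per the text deposited with the tables, reads were quantified on mm10 with GENCODE M4. Aligner and quantifier were not given in the sources used here. A later deposit that replaces this series, per its title, was not used. The authors deposited expected counts and TPM for genes and transcripts, with posterior mean TPM, the signal bounds of its interval, and, for every transcript, its percent of the TPM of the gene. The TPM include spike-ins.

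Symbols, transcript classes and coding lengths came from GENCODE M21. Transcripts annotated as coding fragments count as protein-coding. The 42 genes, the families, the pathway and marker lists and the naming rule (all 42 genes, the main transcripts of genes with known forms or with an unusual main transcript, and the 3 highest of each other list) were chosen with earlier results of these data known. Some genes that the rule names are not reported here. The long coding forms and the start sites were chosen after their values were seen. RefSeq promoter windows matched 32 of the 42 genes. A detected gene had at least 1 TPM in both pools, and ratios used a pseudocount of 1 TPM, which understates the change of low genes. No p-value was computed, since the pools form 1 group and their spread covers these samples only. Alternatives were a pseudocount of 0.1 TPM, posterior mean TPM, protein-coding or long coding transcripts, other thresholds, TPM without spike-ins, and expected counts rounded for edgeR 4.0.16 and DESeq2 1.42.0. The pair rule and the 1.5-fold count were tested on simulated gene levels, which held no error from dividing reads among transcripts.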

Additional observations from a re-analysis of the deposited data

How the results depend on the processing

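All 42 genes stayed detected at 0.5 TPM, in each pool alone, with posterior mean TPM and without spike-ins, and 40 did at 5 TPM. Phc2 alone passed 1.5-fold under every scaling tried, at 2.57-fold without spike-ins, 2.48-fold with edgeR factors and 2.49-fold with DESeq2 factors. The 34 pairs that met the rule kept it, with their direction, at a pseudocount of 0.1 TPM and with posterior means, and 29 pairs met it among those with both means of at least 5 TPM. The main transcript was protein-coding in 38 genes, and in 38 or 39 in each pool alone or by posterior shares. Over protein-coding transcripts 30 kept it and Rbbp4/Rbbp7 reversed, at -0.90, and Pcgf1/Pcgf6 changed sign without meeting the rule, at -0.018. Pcgf3/Pcgf1 (0.09) and Pcgf3/Pcgf6 (0.07) no longer met it.

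Over long coding forms 28 kept it. The mean log2 ratio changed sign for Rbbp4/Rbbp7 (-0.90), Pcgf1/Pcgf6 (-0.15), Pcgf2/Pcgf5 (-0.32), Pcgf3/Pcgf6 (-0.0071) and Kmt2c/Kmt2d (-0.77), and for Phc2/Phc1 (-2.31), while Phc2/Phc3 (0.25) no longer met the rule. The medians of PRC2, PRC1 and Trithorax genes were 48.6 TPM, 23.2 TPM and 17.995 TPM over protein-coding transcripts and 25.8 TPM, 18.6 TPM and 12.0 TPM over long coding forms. With posterior means they were 27.6 TPM for PRC1 and 20.5 TPM for Trithorax genes, and the PRC1 median was 26.9 TPM in each pool alone. Their order held throughout. The pair rule needs both pools, so it was not run on each alone. No paired analysis was possible because there is 1 group.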
